A study of Mus musculus with 40 samples.

Results

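Integrins are the adhesion receptors through which microglia, the resident macrophages of the brain, hold on to matrix, to other cells and to complement-coated material. The set described here holds 9 integrin subunit genes, *Itgax*, *Itgam*, *Itgal*, *Itgb2*, *Itga4*, *Itga6*, *Itgav*, *Itgb1* and *Itgb5*, chosen by gene name as subunits of leukocyte and matrix integrins. They are 9 of the 43346 genes listed in the count table, and all 9 were among the 21253 genes that reached 10 counts in 4 or more of the 40 libraries and were tested.

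Polyadenylated RNA of the cortex was sequenced from 40 mice, to ask how the *Trem2* H157Y allele alters gene expression with and without amyloid deposition. TREM2 is a lipid-sensing receptor of microglia, and H157Y replaces a histidine with a tyrosine at the site where its outer part is shed. The amyloid WT group held 10 mice of 8.5 months with the 5xFAD transgenes and *Trem2* of the wild type, and the amyloid Hom group 10 mice of 8.5 months with 5xFAD and H157Y on both *Trem2* alleles. The non-amyloid WT and non-amyloid Hom groups held 10 mice each, of 6 months, with the same *Trem2* genotypes and no 5xFAD transgenes. Each group had 5 females and 5 males. 5xFAD mice were hemizygous for human transgenes with familial Alzheimer's disease mutations, driven in neurons by the *Thy1* promoter. The knock-in was made by CRISPR/Cas9 in B6/CBA embryos, the amyloid groups were littermates from a cross with 5xFAD, and the mice were perfused before the brain was taken. Transgenes and age differ together between the cohorts, so their parts in a difference between cohorts cannot be told apart.

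An integrin is a pair of an alpha and a beta subunit. The beta2 subunit encoded by *Itgb2* (CD18) pairs with the alpha subunits of *Itgal* (CD11a), *Itgam* (CD11b) and *Itgax* (CD11c) to form leukocyte receptors for ICAM proteins, the complement fragment iC3b and fibrinogen. CD11b is a standard marker of microglia, and CD11c marks the microglia that gather at amyloid plaques. The beta1 subunit (*Itgb1*) pairs with the alpha subunits of *Itga4*, which binds VCAM1 and fibronectin, and of *Itga6*, which binds laminins, and is used by nearly all cell types, while the alpha-v subunit (*Itgav*) pairs with beta5 (*Itgb5*) to bind vitronectin.

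Total counts per library ranged from 41646271 (amyloid Hom replicate 19) to 105903846 (amyloid WT replicate 36). Amyloid Hom replicate 19, from a female, stood apart from the other libraries. On 488 genes that share at least 50% of their exonic bases with an opposite-strand gene of at least 10 times higher median expression, it held 0.616% of its counts (95% Wilson interval from 0.613% to 0.618%, counting error only), and the other 39 libraries held 0.0144% to 0.0191%. The authors left out 1 amyloid Hom female for a low gene count percentage and its strandedness check, and their text does not name the mouse. Replicate 19 is an amyloid Hom female with the lowest total count and by far the highest opposite-strand share. Whether it is the mouse they left out was not settled. Replicate 19 was kept here, with results given also without it. In each of the 180 within-group pairs, counts differed beyond sampling noise, the lowest chi-square per degree of freedom being 13.7.

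In the mm10 genome, 3 of the members lie on chromosome 7, all on the plus strand. *Itgal* (ENSMUSG00000030830) spans 127296260 to 127335137, *Itgam* (ENSMUSG00000030786) 128062640 to 128128160 and *Itgax* (ENSMUSG00000030789) 128129547 to 128150656. The genes of CD11b and CD11c are neighbours, with 1386 bases between them in the deposited gene models. *Itga6* (ENSMUSG00000027111, 71745616 to 71858416), *Itga4* (ENSMUSG00000027009, 79255426 to 79333123) and *Itgav* (ENSMUSG00000027087, 83724397 to 83806916) lie on chromosome 2. *Itgb1* (ENSMUSG00000025809) spans 128685654 to 128733200 of chromosome 8, *Itgb2* (ENSMUSG00000000290) 77530252 to 77565708 of chromosome 10 and *Itgb5* (ENSMUSG00000022817) 33829665 to 33949153 of chromosome 16. The GENCODE vM21 annotation gives them 16 exon blocks (*Itgb2*) to 32 (*Itgal* and *Itgav*).

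Counts of some members are less certain through shared or overlapping sequence. *Itga4* shares 1124 exonic bases with *Cerkl* on the opposite strand, which had a median CPM (normalized counts scaled to a common library size) of 3.82. *Itgam* ends at 128118491 in GENCODE vM21, which lists the gene *Gm49368* on the same strand over 3450 of its exonic bases. *Itgb2*, *Itga6* and *Itgb5* each matched 1 other gene over at least 100 bases with at least 95% identity. The match of *Itgb2* had at most 1 count in a library, and that of *Itga6* at most 18. The lowest counts of these 2 members were 256 and 1543. *Gm49368* and the match of *Itgb5* are not among the genes listed in the count table.

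Levels are given as CPM after TMM normalization, and compared between genes only after division by the exonic length in kilobases. In non-amyloid WT mice *Itgb1* was the most abundant member, at 20.3 ± 2.72 CPM per kb (SD, n = 10), followed by *Itgav* at 12.6 ± 1.43, *Itgb5* at 8.21 ± 1.49, *Itgam* at 4.89 ± 0.420 and *Itga6* at 3.24 ± 0.365 CPM per kb. *Itga4* at 1.61 ± 0.306 and *Itgb2* at 1.56 ± 0.273 CPM per kb did not differ beyond their spread. *Itgal*, at 0.209 ± 0.0554, and *Itgax*, at 0.0927 ± 0.0270 CPM per kb, closed the order, which was the same in non-amyloid Hom mice.

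In amyloid WT mice the order was different. *Itgb5* reached 18.7 ± 5.0 CPM per kb, within its spread of *Itgb1* at 22.5 ± 2.70. *Itgax*, last in the mice without transgenes, stood in the middle of the order at 7.96 ± 3.78 CPM per kb, within its spread of *Itgb2* at 6.99 ± 2.28 and *Itgam* at 11 ± 3.51. In amyloid Hom mice *Itgax* was at 3.49 ± 0.983 CPM per kb and did not differ beyond its spread from *Itga6* at 3.93 ± 0.414 and *Itgb2* at 4.01 ± 0.906. *Itgal* was the scarcest member in both amyloid groups, at 0.195 ± 0.0494 in WT and 0.179 ± 0.0385 CPM per kb in Hom mice.

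**Figure D1:**
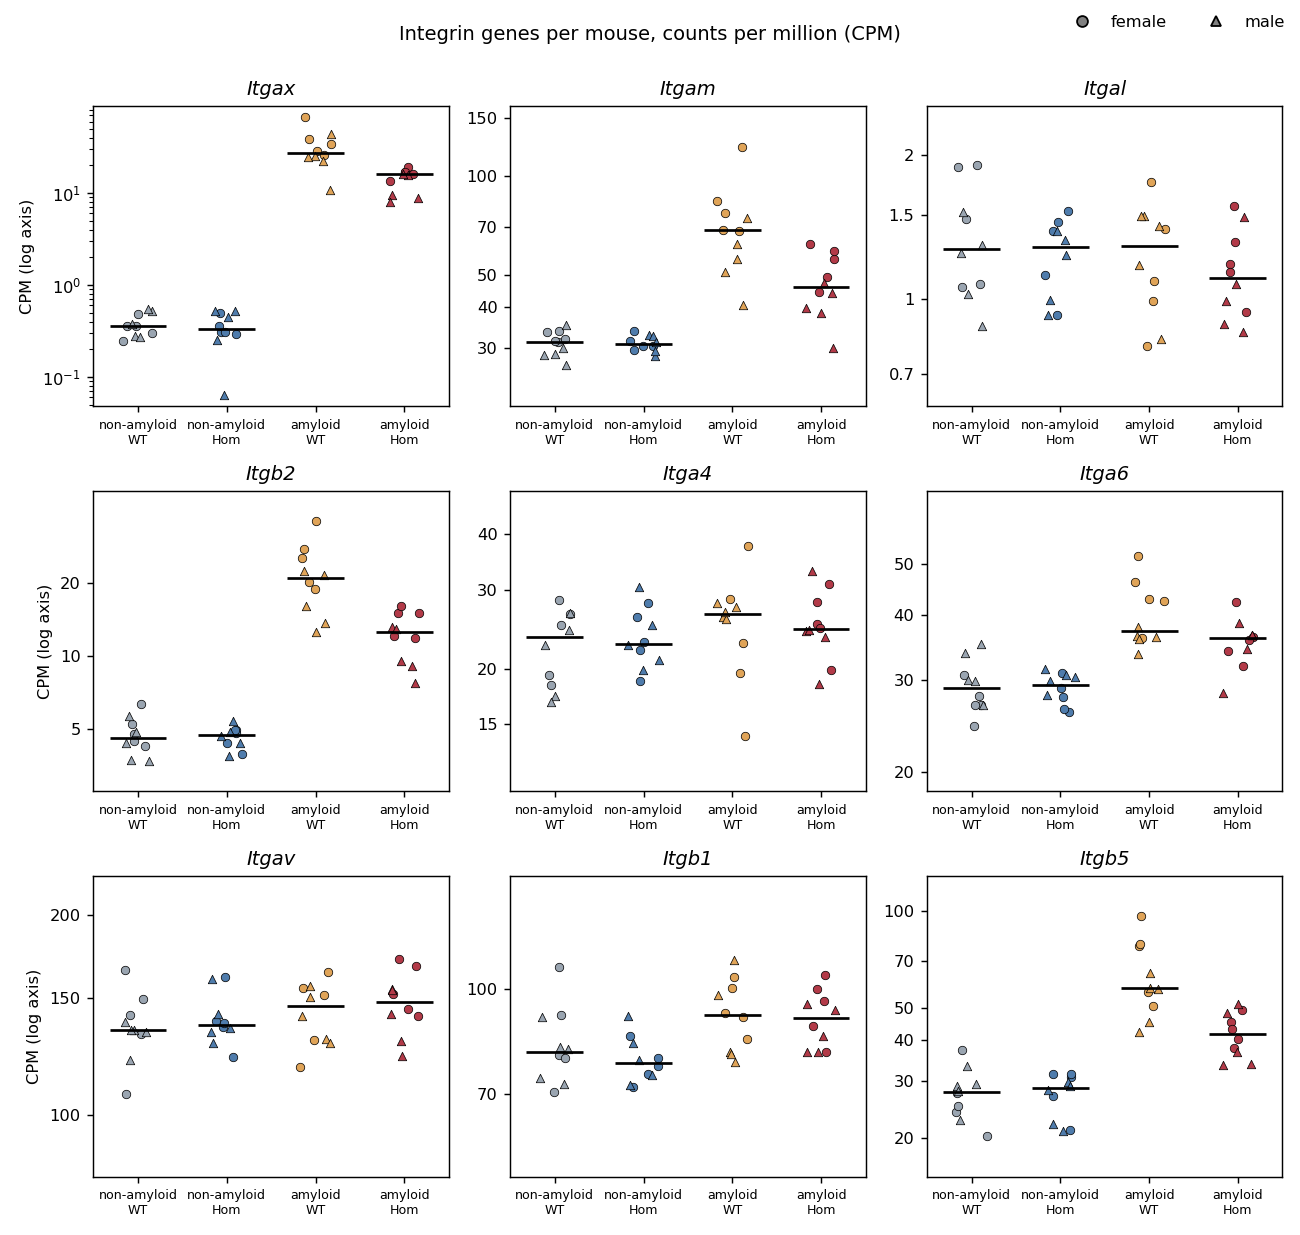
CPM (log axis) of the 9 integrin genes in each of the 40 mice by group, with circles for females, triangles for males and a bar at the group median. *Itgax* ranged from 0.0641 to 0.550 CPM in the non-amyloid mice and from 7.95 to 67.0 CPM in the amyloid mice, while the 4 groups overlapped for *Itgal*, *Itga4*, *Itgav* and *Itgb1*.

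*Itgax*, the gene of CD11c, had from 0.247 to 0.550 CPM in non-amyloid WT mice (median 0.358) and from 0.0641 to 0.519 CPM in non-amyloid Hom mice (median 0.333). In amyloid WT mice it had from 10.8 CPM in replicate 13 to 67.0 CPM in replicate 32 (median 27.3). In amyloid Hom mice it had from 7.95 CPM in replicate 40 to 19.2 CPM in replicate 16 (median 16). Every amyloid mouse was above every non-amyloid mouse, and 9 of the 10 amyloid WT mice were above every amyloid Hom mouse, the exception being replicate 13. Between WT mice of the cohorts it was 86.0-fold higher with amyloid (log2 fold change 6.43, SE 0.28, Benjamini-Hochberg adjusted p = 3.46e-21 in edgeR's quasi-likelihood test), the second lowest p of all genes tested. Within the amyloid cohort its log2 fold change in Hom against WT mice was -1.19 (SE 0.24), with an adjusted p = 0.0525 by the same edgeR test, which missed the threshold of 0.05.

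*Itgam*, the gene of CD11b, was far more even. It had from 26.7 to 35.3 CPM in non-amyloid WT mice (median 31.4) and from 28.4 to 33.9 CPM in non-amyloid Hom mice (median 30.9). In the amyloid cohort it had from 40.5 CPM in replicate 13 to 122 CPM in replicate 32 of the WT mice (median 68.3), and from 30.1 to 62.3 CPM in Hom mice (median 45.8). The amyloid WT mice lay above every non-amyloid WT mouse, while the lowest amyloid Hom mouse, replicate 40, lay among the non-amyloid mice. All 10 amyloid Hom mice were below the median of the amyloid WT mice. The log2 fold change between cohorts was 1.18 (SE 0.12) in WT mice, with a Benjamini-Hochberg adjusted p = 5.0e-10 in edgeR's quasi-likelihood test. Between genotypes in the amyloid cohort it was -0.58 (SE 0.16), which did not pass (adjusted p = 0.0974, same edgeR test).

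*Itgb2* encodes the beta subunit that both of these alpha subunits need to reach the cell surface. It had from 3.71 to 6.35 CPM in non-amyloid WT mice (median 4.62) and from 3.88 to 5.41 CPM in non-amyloid Hom mice (median 4.75). It had from 12.5 to 35.7 CPM in amyloid WT mice (median 20.8), with replicates 13 and 32 again at the ends, and from 7.73 to 16 CPM in amyloid Hom mice (median 12.5). The cohorts did not overlap, and 5 of the 10 amyloid Hom mice were below every amyloid WT mouse. Amyloid WT mice were 4.48-fold above non-amyloid WT mice (log2 fold change 2.16, SE 0.14, Benjamini-Hochberg adjusted p = 4.32e-15 in edgeR's quasi-likelihood test). The log2 fold change of amyloid Hom against WT mice was -0.80 (SE 0.17), with an adjusted p = 0.0554 by the same edgeR test.

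*Itgal*, the CD11a subunit of LFA-1, which lymphocytes use to bind ICAM1, was low everywhere. Its range was 0.880 to 1.90 CPM in non-amyloid WT, 0.925 to 1.53 in non-amyloid Hom, 0.798 to 1.75 in amyloid WT and 0.855 to 1.57 CPM in amyloid Hom mice. All 4 groups overlapped, and the log2 fold change was -0.10 (SE 0.15) between the WT groups of the cohorts and -0.12 (SE 0.16) between genotypes in the amyloid cohort. Neither passed the test.

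*Itgb5*, the vitronectin receptor's beta subunit, was the only one of the matrix-binding members whose WT mice did not overlap between cohorts. It had from 20.3 to 37.2 CPM in non-amyloid WT mice (median 27.7), from 21 to 31.5 in non-amyloid Hom mice (median 28.5), from 42.4 to 95.9 in amyloid WT mice (median 57.7) and from 33.5 to 51.6 CPM in amyloid Hom mice (median 41.7). Of the amyloid Hom mice, 5 were below every amyloid WT mouse and none was above the WT median. Its log2 fold change between the WT groups was 1.19 (SE 0.12), with a Benjamini-Hochberg adjusted p = 4.75e-10 in edgeR's quasi-likelihood test. Between genotypes in the amyloid cohort it was -0.58 (SE 0.13, adjusted p = 0.0591 by the same edgeR test).

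The partner of beta5, *Itgav*, had between 108 and 172 CPM in all 40 mice, with a log2 fold change of 0.07 (SE 0.07) between the WT groups and 0.05 (SE 0.07) between the amyloid genotypes. *Itgb1* had between 70.5 and 110 CPM, with a log2 fold change of 0.15 (SE 0.07) between the WT groups, where the Benjamini-Hochberg adjusted p was 0.196 in edgeR's quasi-likelihood test. *Itga4*, the VCAM1-binding alpha subunit, had between 14.2 and 37.5 CPM, with log2 fold changes of 0.19 (SE 0.12) between the WT groups and -0.02 (SE 0.13) between the amyloid genotypes. The groups overlapped for each of these 3 genes. *Itga6*, the laminin-binding alpha subunit, had from 24.5 to 35.1 CPM in non-amyloid WT mice (median 29) and from 33.7 to 51.8 CPM in amyloid WT mice (median 37.2), and 9 of the 10 amyloid WT mice were above every non-amyloid WT mouse. Its log2 fold change there was 0.45 (SE 0.07), with an adjusted p = 4.90e-06 by the same edgeR test.

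Across the cohorts, amyloid WT mice were thus called higher than non-amyloid WT mice for 5 of the 9 members (*Itgax*, *Itgb2*, *Itgb5*, *Itgam* and *Itga6*), at an absolute log2 fold change over 0.25 and a Benjamini-Hochberg adjusted p under 0.05 in edgeR's quasi-likelihood test. Of all genes tested, 6.62% were called higher. Libraries did not overlap for 4 members (all but *Itga6*), against 2.0% of all genes. The same 5 members were called higher in amyloid Hom than in non-amyloid Hom mice, where 5.71% of all genes were called higher. The log2 fold changes in Hom mice were 5.28 (SE 0.27) for *Itgax*, 1.4 (SE 0.14) for *Itgb2*, 0.63 (SE 0.12) for *Itgb5*, 0.60 (SE 0.12) for *Itgam* and 0.29 (SE 0.07) for *Itga6*. Libraries did not overlap for 3 members there (*Itgax*, *Itgb2* and *Itgb5*), against 0.885% of all genes. The median log2 fold change of the 9 members was 0.45 in WT mice, beside 0.0023 over all genes. The 2 comparisons share no mice.

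Between genotypes in the amyloid cohort no member was called by edgeR's quasi-likelihood test, as against 0.0753% of all genes (16 of 21253). At an unadjusted p under 0.05 there were 5 members (*Itgax*, *Itgb2*, *Itgb5*, *Itgam* and *Itga6*), all lower in Hom mice, against 9.67% of all genes. The log2 fold change was below 0 for 8 of the 9 members, with a median of -0.17 beside 0.0014 over all genes. The call differed between models. *Itgax*, *Itgam*, *Itgb2* and *Itgb5* were called lower with DESeq2 (where 1.43% of all genes were called), with sex as a covariate (1.18%) and in a fit of all 40 libraries (2.88%). *Itgax* alone was called with upper-quartile normalization (0.104%) and with library size alone (0.0941%). No member was called with limma-voom and sample quality weights (0.118% of all genes), without the filter on low counts (0.0238%) or without the fold change minimum (0.0753%).

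Single mice also moved this count. Without amyloid WT replicate 13, the WT mouse with the lowest *Itgax*, *Itgam* and *Itgb2*, the same 4 members were called lower (0.960% of all genes were called). There were 3 (*Itgax*, *Itgb2* and *Itgb5*) without amyloid WT replicate 9 (0.282%), and 2 (*Itgax* and *Itgb2*) without amyloid WT replicate 22 (0.442%), amyloid Hom replicate 3 (0.306%) or amyloid Hom replicate 34 (0.141%). Without replicate 19 no member was called (0.0706% of all genes were), and the log2 fold changes were -1.21 for *Itgax*, -0.79 for *Itgb2*, -0.58 for *Itgb5* and -0.57 for *Itgam*. With sex as a covariate and without replicate 19, a combination chosen after seeing the data, those 4 members were called lower (0.941% of all genes).

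In the non-amyloid cohort no member was called between genotypes by edgeR or by DESeq2, against 0.0329% of all genes with edgeR, and none of the members had an unadjusted p under 0.05, against 4.61% of all genes. The log2 fold changes of Hom against WT mice lay between -0.12 (*Itgal*, SE 0.15) and 0.07 (*Itga4*, SE 0.10). The 95% interval for *Itgam* was the narrowest there, from -0.10 to 0.09, and that for *Itgax*, with few counts, reached from -0.54 to 0.42.

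Whether the genotype difference itself differed between cohorts was tested as an interaction over the 40 libraries. No member was called by edgeR's quasi-likelihood test, nor was any gene (0.00% of all genes). At an unadjusted p under 0.05 there were 4 members, against 10.3% of all genes. They were *Itgb2* (interaction of -0.77 on the log2 scale, SE 0.20, unadjusted p = 0.000377), *Itgam* (-0.58, SE 0.17), *Itgb5* (-0.56, SE 0.17) and *Itgax* (-1.15, SE 0.36). DESeq2 called 38 genes and no member. The larger genotype differences in the amyloid cohort are therefore not shown to differ from those in the non-amyloid cohort once all genes are accounted for.

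**Figure D2:**
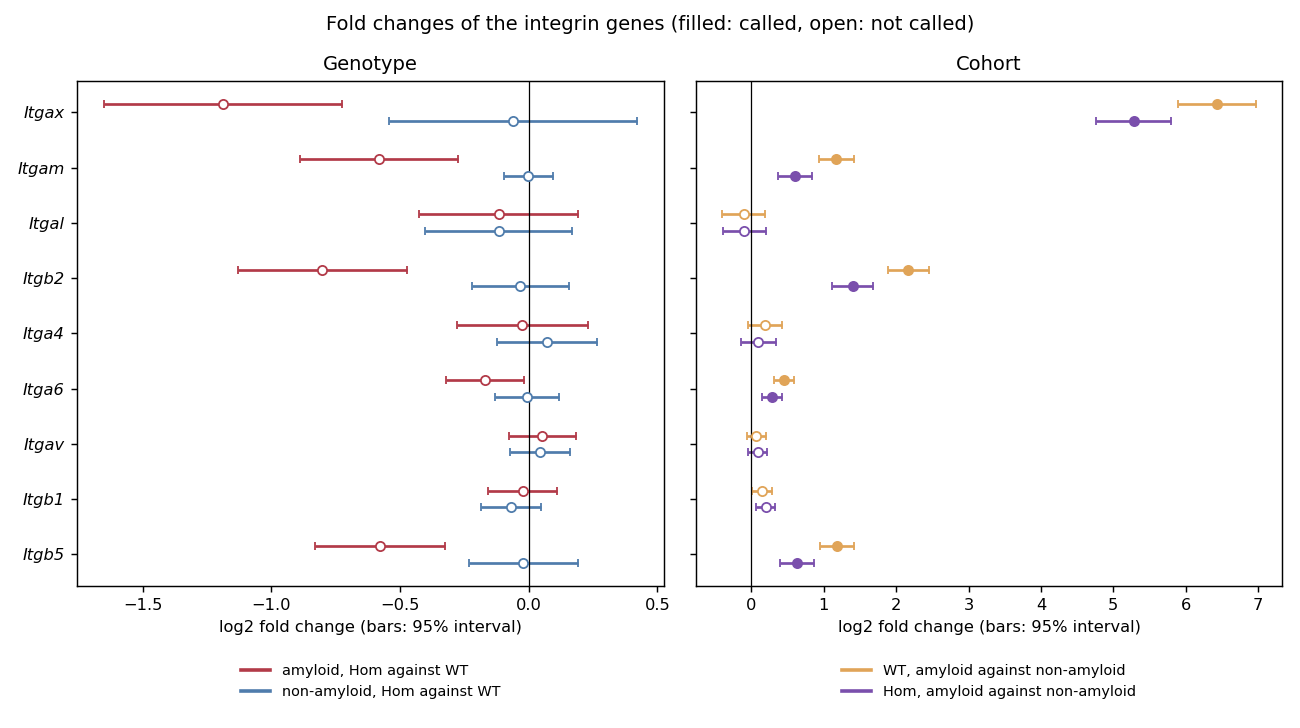
Log2 fold change (points) with 95% interval (bars) of the 9 integrin genes between genotypes within each cohort (left) and between cohorts within each genotype (right), with filled points for called genes. The left panel has no filled point, with *Itgax* at -1.19 in the amyloid cohort, and the right panel has 5 filled points in each genotype, with *Itgax* at 6.43 in WT and 5.28 in Hom mice.

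Ratios of counts between 2 subunit genes were taken within a library and need no scaling for depth. In cortex as a whole such a ratio mixes all cell types. Other amounts of a subunit's RNA within cells and other numbers of the cells that carry it cannot be told apart. The log2 ratio of *Itgax* to *Itgam*, the CD11c and CD11b subunits that share beta2, was lowest at -7.01 and highest at -5.71 in non-amyloid WT mice (median -6.46), lowest at -1.91 and highest at -0.76 in amyloid WT mice (median -1.18), and lowest at -2.16 and highest at -1.44 in amyloid Hom mice (median -1.84). The cohorts did not overlap, and 3 amyloid Hom mice were below every amyloid WT mouse. The ratio was lower in amyloid Hom than in amyloid WT mice by a difference of -0.55 (SE 0.13, p = 0.00104, adjusted p = 0.00250, two-sided permutation test, Benjamini-Hochberg over 12 tests). In the non-amyloid cohort the difference was -0.20 (SE 0.31, p = 0.611, adjusted p = 0.703, same permutation test). *Itgax* thus differed more between the amyloid genotypes than its neighbour *Itgam* did.

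For *Itgax* against its partner *Itgb2*, the difference between amyloid Hom and WT mice was -0.33 (SE 0.14, p = 0.0318, adjusted p = 0.0545, permutation test), which did not pass. It passed without amyloid Hom replicate 19 (difference -0.37) and without amyloid WT replicate 5 (-0.39), 13 (-0.42) or 27 (-0.37), and over the 20 mice left out in turn the adjusted permutation p ranged from 0.00887 to 0.108. The log2 ratio of *Itgb5* to *Itgav* was lower in amyloid Hom (mean -1.82 ± 0.27, SD, n = 10) than in amyloid WT mice (-1.22 ± 0.48), with 6 Hom mice below every WT mouse (difference -0.60, SE 0.17, p = 0.00214, adjusted p = 0.00428, permutation test). Between the WT groups of the cohorts this ratio was higher with amyloid by 1.09 (SE 0.20, p = 6e-05, adjusted p = 0.00024, permutation test). The ratio of *Itgal* to *Itgam* was lower with amyloid, by a difference of -1.22 (SE 0.22, p = 8e-05, adjusted p = 0.00024, permutation test), and 9 of 10 amyloid WT mice were below every non-amyloid WT mouse. Between amyloid genotypes that ratio differed by 0.45 (SE 0.22, p = 0.0577, adjusted p = 0.0865, permutation test), which did not pass, and it passed without amyloid WT replicate 13 (0.56) or 22 (0.53). The genotype comparison and the cohort comparison share the amyloid WT mice.

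Sex was compared within the amyloid cohort, averaged over genotypes. *Itgam* had a median of 77.1 CPM in WT females and 56.1 in WT males, and 55.7 in Hom females and 39.7 in Hom males. *Itgb2* had a median of 25.1 CPM in WT females and 16 in WT males, and 15.0 in Hom females and 9.52 in Hom males. Females were the higher sex for both genes in both genotypes, with ranges that overlapped between the sexes. The log2 fold change of females against males was 0.50 (SE 0.12) for *Itgam*, with a Benjamini-Hochberg adjusted p = 0.0751 in edgeR's quasi-likelihood test, 0.49 (SE 0.14) for *Itgb2* and 0.56 (SE 0.21) for *Itgax*. No member was called, against 0.221% of all genes, and 5 members (these 3, *Itga6* and *Itgb5*) had an unadjusted p under 0.05, all higher in females, against 8.19% of all genes. Markers of microglia were also higher in females for 10 of 10 genes (median log2 fold change 0.38), 8 of them at an unadjusted p under 0.05, and 2, *Fcrls* and *Gpr34*, were called. Markers of plaque-associated microglia were higher for 10 of 10 (median 0.61), 9 at an unadjusted p under 0.05 and none called. Of the markers of other cells *Gfap* alone was called (0.83, SE 0.17, higher in females). All tested markers were higher in females for border macrophages (7 genes, 2 at an unadjusted p under 0.05) and monocytes (4 genes, 1), and lower for neutrophils (3 genes, all 3), endothelium (10 genes, 2) and erythroid cells (5 genes, 0). DESeq2 called *Itgam* and *Itgb2* (1.21% of all genes), limma-voom called *Itgam* (0.659%), and so did leaving out amyloid WT replicate 26 (0.640%) or 36 (0.541%). The interaction of genotype and sex gave no call of any gene by edgeR or DESeq2 (0.00% of all genes), and no member had an unadjusted p under 0.05, against 5.29% of all genes.

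Integrin genes outside the set include the subunits of platelets, epithelia and muscle. Of 18 further subunit genes, 16 were tested and 1 was called higher in amyloid WT than in non-amyloid WT mice. This count, like those called higher there in the lists below, stands beside 6.62% of all genes. The called gene was *Itgb3* (log2 fold change 0.46, SE 0.12), the beta subunit of the platelet fibrinogen receptor and another partner of alpha-v. The median log2 fold change of the 16 was 0.21. In amyloid Hom against WT mice none was called, with values of -0.37 (SE 0.12) for *Itgb3*, -0.52 (SE 0.22) for *Itgad*, another alpha partner of beta2, and -0.30 (SE 0.14) for *Itga7*, and 12 of the 16 were below 0.

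Among 25 tested genes of integrin ligands, 6 were called higher in amyloid WT than in non-amyloid WT mice and none lower. They included the secreted ligand osteopontin (*Spp1*, log2 fold change 1.77, SE 0.21), TGF-beta1 (*Tgfb1*, 1.73, SE 0.21), whose latent form is bound by alpha-v integrins, complement C3 (*C3*, 2.18, SE 0.33), source of the iC3b that CD11b and CD11c bind, and *Icam1* (1.07, SE 0.16), a ligand of beta2 integrins. The fibrinogen chain *Fgg* was also called (3.31, SE 0.94). In amyloid Hom against WT mice none of the ligands was called, with log2 fold changes of -1.32 (SE 0.26) for *Spp1*, -0.97 (SE 0.25) for *Tgfb1* and -0.47 (SE 0.17) for *Icam1*, and a list median of -0.12, 19 of the 25 being below 0.

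Of 20 genes for proteins that bind integrin tails or switch integrins on, 5 were called higher in amyloid WT than in non-amyloid WT mice and 1 lower, *Rasgrp2* (log2 fold change -0.48, SE 0.16), an exchange factor for RAP1. The 5 were *Apbb1ip* (log2 fold change 1.24, SE 0.12), whose protein RIAM links RAP1 to talin, *Parvg* (1.15, SE 0.14), the parvin of blood cells, *Fermt3* (1.19, SE 0.17), which encodes kindlin-3 of blood cells, *Tln1* (0.41, SE 0.09), which encodes talin, and *Parvb* (0.45, SE 0.11). Their list median was 0.08. In amyloid Hom against WT mice none was called, and the lowest p belonged to *Parvg* (-0.67, SE 0.16), *Fermt3* (-0.49, SE 0.17) and *Apbb1ip* (-0.37, SE 0.14), with 13 of the 20 below 0 (median -0.08).

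Of 14 kinases and adaptors downstream of integrins, 8 were called higher in amyloid WT than in non-amyloid WT mice and none lower. The 5 with the lowest p were the adaptor *Fyb* (log2 fold change 1.36, SE 0.11), the exchange factor *Vav1* (1.47, SE 0.13), the Src-family kinases *Fgr* (3.45, SE 0.34) and *Lyn* (0.99, SE 0.10), and the phospholipase *Plcg2* (1.11, SE 0.11), with a list median of 0.55. Between the amyloid genotypes 13 of the 14 had a log2 fold change below 0 (median -0.28), and none was called. Values were -0.60 (SE 0.15) for *Vav1* and -0.49 (SE 0.14) for *Plcg2*.

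Markers of microglia moved with these results. In cortex as a whole, more or fewer cells of a type and more or less RNA per cell cannot be told apart. All 10 of 10 microglial markers were called higher in amyloid WT than in non-amyloid WT mice (median log2 fold change 1.11), among them *Cx3cr1* (1.19, SE 0.09), *Csf1r* (1.11, SE 0.09), *Fcrls* (2.21, SE 0.21) and *Aif1* (1.11, SE 0.14). Their summed level was 409 ± 38.4 CPM in non-amyloid WT, 403 ± 22.8 in non-amyloid Hom, 959 ± 203 in amyloid WT and 687 ± 136 CPM in amyloid Hom mice (SD, n = 10). The 1.18 of *Itgam* stood near the median of this list, and the 2.16 of *Itgb2* and 6.43 of *Itgax* above it. Between amyloid genotypes all 10 had a log2 fold change below 0 (median -0.46) and none was called, with *Tmem119* at -0.66 (SE 0.15), *Csf1r* at -0.48 (SE 0.11) and *Cx3cr1* at -0.45 (SE 0.12).

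Markers of plaque-associated microglia, a list without *Itgax*, were called higher for 10 of 10 genes in amyloid WT against non-amyloid WT mice (median log2 fold change 2.66), with *Cst7* at 8.90 (SE 0.36), *Ccl6* at 4.02 (SE 0.20), *Clec7a* at 5.94 (SE 0.30), *Tyrobp* at 2.77 (SE 0.17) and *Cd68* at 2.46 (SE 0.16). Their summed level was 151 ± 9.77 CPM in non-amyloid WT, 149 ± 11.8 in non-amyloid Hom, 520 ± 158 in amyloid WT and 314 ± 76.0 CPM in amyloid Hom mice, and *Lpl* was the most abundant. Between amyloid genotypes 1 of 10 was called lower, *Gpnmb* (-1.61, SE 0.29, Benjamini-Hochberg adjusted p = 0.0330 in edgeR's quasi-likelihood test), and the median of -0.86 lay between the values of *Itgb2* and *Itgax*. The part of these markers in the integrin differences was not tested.

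Within the groups, members followed the microglial markers to different degrees. Values were centred by genotype and not by sex, so each r and rho includes any difference between females and males. In the amyloid cohort the microglial markers and *Itgam*, *Itgb2*, *Itgax*, *Itgb5* and *Itga6* were on average higher in females. The relation within each sex was not tested. Over the 20 amyloid mice, with each genotype centred on its mean, the log2 CPM of *Itgam* and the mean log2 CPM of the 10 microglial markers had a Pearson r of 0.93 and a Spearman rho of 0.91 (p = 2e-05 for each, the smallest that 100000 resamples can give, adjusted p = 0.00012, permutation test, Benjamini-Hochberg over 18 relations). Without the 2 mice farthest from the median of the markers r was 0.94. For *Itgb2* r was 0.90 and rho 0.89, and for *Itgax* r was 0.85 and rho 0.86, each with a permutation p = 2e-05 and an adjusted p = 0.00012, and r without the 2 farthest mice was 0.88 and 0.80. *Itgb5* had an r of 0.66 and a rho of 0.72 (permutation p = 0.00144 and 0.00044, adjusted p = 0.00648 and 0.00198), and 0.58 without the 2 farthest mice. *Itgb1* had an r of 0.62 and a rho of 0.64 (permutation p = 0.00356 and 0.00278, adjusted p = 0.0128 and 0.0100), and *Itga6* an r of 0.60 and a rho of 0.55 (permutation p = 0.0045 and 0.0121, adjusted p = 0.0135 and 0.0321), with r of 0.69 and 0.68 without the 2 farthest mice. *Itgal*, *Itga4* and *Itgav* had r of 0.01, -0.39 and 0.24 and did not pass. In the non-amyloid mice *Itgam* alone passed (r of 0.56, permutation p = 0.00974, adjusted p = 0.0250, rho of 0.55, permutation p = 0.0125, adjusted p = 0.0321). Its r was 0.37 without the 2 farthest mice, so that relation leans on them. Without replicate 19 the amyloid r was 0.93 for *Itgam*, 0.90 for *Itgb2* and 0.86 for *Itgax*.

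Markers of other cells that carry integrins were mostly scarce. Of 10 T and NK cell markers, 6 were tested and 4 were called higher in amyloid WT than in non-amyloid WT mice, *Klrb1c* (log2 fold change 3.45, SE 0.51), *Cd8a* (2.96, SE 0.55), *Cd3e* (2.6, SE 0.54) and *Cd3g* (1.74, SE 0.55). Their summed level was 1.44 ± 0.278 CPM in non-amyloid WT, 1.52 ± 0.212 in non-amyloid Hom, 2.20 ± 0.513 in amyloid WT and 2.01 ± 0.493 CPM in amyloid Hom mice, most of it from *Lck*, and *Cd3d*, *Cd2*, *Nkg7* and *Ncr1* were below the filter. *Itgal*, the integrin subunit best known from these cells, had a log2 fold change of -0.10 (SE 0.15) in the same comparison. The part of T and NK cells in the integrin results was not tested. Between amyloid genotypes none of the 6 was called, with *Klrb1c* at -1.23 (SE 0.36), *Cd3g* at -0.56 (SE 0.40) and *Cd3e* at -0.61 (SE 0.47), and values of the 6 from -1.23 to 0.63, 4 of them below 0.

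No marker of border macrophages (7 genes), B cells (2 of 4 tested) or blood monocytes (4 genes) was called in either comparison. Border macrophage markers, led by *Mrc1*, summed to 15.3 ± 3.31 CPM in non-amyloid WT and 18.2 ± 3.05 CPM in amyloid WT mice, B cell markers, led by *Cd79a*, to 0.428 ± 0.101 and 0.521 ± 0.128 CPM, and monocyte markers, led by *Ccr2*, to 1.21 ± 0.420 and 1.18 ± 0.192 CPM. The log2 fold change between the WT groups was 0.44 (SE 0.15) for *F13a1*, 0.39 (SE 0.21) for *Lyve1* and 0.33 (SE 0.22) for *Cd163* of border macrophages. Between amyloid genotypes all 7 border macrophage markers had a log2 fold change below 0 (median -0.27, 2 at an unadjusted p under 0.05), as did all 4 monocyte markers (median -0.14), all 3 tested neutrophil markers (median -0.70) and 1 of the 2 B cell markers. No monocyte, neutrophil or B cell marker had an unadjusted p under 0.05 there. Of the neutrophil markers 3 of 6 were tested and *Ngp* was called lower with amyloid (-3.01, SE 0.92), at a summed level, led by *S100a9*, of 2.07 ± 5.56 CPM in non-amyloid WT and 0.612 ± 0.540 CPM in amyloid WT mice. The higher mean rests on non-amyloid WT replicate 24, with 17.9 CPM, and the medians were 0.331 and 0.453 CPM. The call of *Ngp* was not tested without that mouse. No marker of these lists was at 0 in every library.

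Neuronal markers were abundant in every group, with a summed level of 10991 ± 510 CPM in non-amyloid WT and 10716 ± 696 CPM in amyloid WT mice. Of the brain's other cells, astrocyte markers were called higher for 3 of 9 genes in amyloid WT mice, *Gfap* (log2 fold change 3.16, SE 0.20), *Aqp4* (0.64, SE 0.10) and *Aldoc* (0.26, SE 0.07), at a summed level of 5211 ± 479 CPM in non-amyloid WT and 6605 ± 476 CPM in amyloid WT mice, and endothelial markers for 2 of 10, *Kdr* (0.27, SE 0.08) and *Cldn5* (0.47, SE 0.15). None of 5 pericyte, 8 oligodendrocyte, 3 oligodendrocyte precursor, 9 neuronal or 5 erythroid markers was called, with list medians of 0.16, 0.02, 0.18, -0.05 and 0.37. In amyloid Hom against WT mice no gene of these 7 lists was called, and *Gfap* had a log2 fold change of -0.95 (SE 0.24). The list medians there were -0.10 for astrocytes (6 of 9 genes below 0), 0.0026 for endothelium, -0.08 for pericytes, 0.07 for oligodendrocytes, -0.06 for their precursors, 0.06 for neurons and 0.10 for erythroid cells. The most abundant genes were *Slc1a2* for astrocytes, *Flt1* for endothelium, *Rgs5* for pericytes, *Pdgfra* for oligodendrocyte precursors, *Snap25* for neurons and *Hbb-bs* for erythroid cells.

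The genes most like each member were sought over the 20 amyloid mice, by Pearson r of log2 CPM centred on the genotype means, among 15346 genes with a mean of at least 1 CPM. *Itgax* was most like *Lair1* (r = 0.92), an inhibitory collagen receptor, the heparanase gene *Hpse* (0.91) and the lysozyme gene *Lyz2* (0.91). *Itgam* was most like *Anxa3* (0.94), *Ly86* (0.94) and *Lyz2* (0.94), and *Itgb2* most like the lysosomal genes *Ctsz* (0.97) and *Cd68* (0.96), and *Trem2* (0.94). *Itgb5* was most like the complement genes *C1qa* (0.93) and *C1qc* (0.89) and the progranulin gene *Grn* (0.89). The 4 members with the lowest p between amyloid genotypes thus had genes of macrophages and microglia as their nearest genes.

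The remaining members had other neighbours. *Itga6* was most like the kinase gene *Tec* (r = 0.85) and the transcription factor gene *Elk3* (0.80). *Itga4* was most like the neurotrophin gene *Ntf3* (0.89), *Bhlhe22* (0.86) and *Pde4d* (0.85), and *Itgav* like *Rsbn1l* (0.94), *Zfp62* (0.94) and *Mier3* (0.93). *Itgb1* was most like the TGF-beta receptor gene *Tgfbr1* (0.85), *Gm4790* (0.82) and *Rps24* (0.82), and *Itgal*, at the lowest counts, like *Stx1a* (0.77), *Tubgcp2* (0.76) and *Fbxo34* (0.75). These r are the highest of many and are given as a description. The sexes were not centred here either, so each r includes any difference between them.

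Promoter sequences of 6 of the 9 members were read from RefSeq (GRCm38.p6), from 250 bases before to 50 bases after the start of the gene. They are shown for the 3 of these members that were called higher in both amyloid groups with a log2 fold change over 0.5, with matches to GAGGAA, the core of the box bound by the macrophage factor PU.1, or to its reverse complement TTCCTC in capitals.
Itgam, chr7:128062390-128062689, plus strand: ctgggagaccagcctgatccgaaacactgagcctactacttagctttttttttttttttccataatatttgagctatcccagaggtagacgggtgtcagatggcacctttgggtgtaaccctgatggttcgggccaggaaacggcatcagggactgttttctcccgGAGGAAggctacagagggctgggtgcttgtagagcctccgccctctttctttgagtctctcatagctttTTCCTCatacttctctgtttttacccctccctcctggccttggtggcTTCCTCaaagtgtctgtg
Itgax, chr7:128129300-128129599, plus strand: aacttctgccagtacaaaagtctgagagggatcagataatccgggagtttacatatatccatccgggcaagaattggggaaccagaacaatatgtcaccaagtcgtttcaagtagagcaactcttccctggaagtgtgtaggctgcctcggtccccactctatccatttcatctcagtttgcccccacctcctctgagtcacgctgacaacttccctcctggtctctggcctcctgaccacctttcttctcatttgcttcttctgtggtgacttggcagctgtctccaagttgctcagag
Itgb5, chr16:33829415-33829714, plus strand: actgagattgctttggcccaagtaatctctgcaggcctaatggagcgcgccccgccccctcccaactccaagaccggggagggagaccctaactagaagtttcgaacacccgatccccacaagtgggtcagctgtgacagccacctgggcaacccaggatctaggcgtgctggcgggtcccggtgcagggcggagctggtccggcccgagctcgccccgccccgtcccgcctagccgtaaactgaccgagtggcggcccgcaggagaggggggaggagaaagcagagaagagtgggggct
*Itgam* held 3 matches, *Itgax* and *Itgb5* 0. Among the members that were not called, *Itgav* held 2, *Itgb1* 1 and *Itga4* 0. Of 32851 promoters of this length, 28.3% held at least 1 match.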

How the data were processed

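The libraries were made with a poly-A TruSeq kit, and the deposited values are raw counts per gene, which the authors made with featureCounts on the mm10 genome. The submitters' processing notes name STAR 2.5.2b, featureCounts 1.5.1 and edgeR, and the study's methods name a pipeline with another aligner. The strand setting of the counting is not given, so reads of overlapping antisense genes are uncertain. Here genes with 10 counts or more in 4 or more libraries were normalized by TMM and tested with edgeR 4.0.16 (quasi-likelihood, Benjamini-Hochberg) in R 4.3.3, called at an adjusted p under 0.05 with an absolute log2 fold change above 0.25. Genotypes were compared among the 20 libraries of a cohort, cohorts in 1 fit of 40. Alternatives were DESeq2 1.42.0, limma 3.58.1 (voom), other scalings, filters and covariates, and leaving out each library. Ratios and correlations were tested with scipy 1.17.1, and sequences compared with BLAST 2.17.0. The members are named in full, with up to 5 called genes of lowest p from each other list, up to 3 where none was called, and up to 3 genes most like each member; *Rasgrp2*, and *Fcrls*, *Gpr34* and *Gfap* between the sexes, were named after their values were seen. Some genes that this rule names are not reported here. The members and lists were chosen with earlier results of these data known. PCR reads without molecular identifiers are not independent, so intervals of shares cover counting error only.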

Additional observations from a re-analysis of the deposited data

Results flagged for a closer look

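In 2 of 40 groups of 10 values tested, the gap between 1 mouse and the next was over 0.466 of the group's range. Chance passes that threshold in about 1 in 20 groups, and larger gaps are rarer. The log2 CPM of *Itgax* was -3.96 in non-amyloid Hom replicate 23, a mouse with 4 counts, beside -1.97 in the next lowest and -0.95 in the highest mouse of its group. That gap was 0.660 of the range. The share of counts on genes under an opposite-strand gene was 0.616% in amyloid Hom replicate 19, beside 0.0175% in the next highest mouse of its group. Here the gap was 0.997 of the range, far over the threshold.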

How the results depend on the processing

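The 5 members called higher with amyloid were called under every alternative and without any 1 library, in WT and in Hom mice, and 0 members were called in non-amyloid Hom against WT mice and in both interactions throughout. In amyloid Hom against WT mice 0 members were called, but 4 with DESeq2 (303 genes in all, against 16), with sex as a covariate (251 genes), with 1 fit of the 40 libraries (612 genes) and, added after seeing the data, with sex as a covariate and replicate 19 left out (200 genes), 1 with upper-quartile normalization (22 genes) or library size alone (20 genes), and 0 to 4 when each of the 20 libraries was left out in turn (6 to 204 genes). In amyloid females against males 2 members were called with DESeq2 (258 genes, against 47) and 1 with limma-voom (140 genes), and 0 to 1 with each library left out (18 to 136 genes). In the interaction of genotype and cohort no member was called at any setting, while 38 genes were with DESeq2, 12 with sex as a covariate and 6 without replicate 19 as well, against 0, and 0 to 22 genes were with each of the 40 libraries left out. The cause was not tested. Values that did not pass and lay near 0 changed sign. With limma-voom these were 0.022 for *Itgb1* in amyloid Hom against WT mice, 0.018 for *Itgb2* in non-amyloid Hom against WT mice, 0.019 for *Itgb5* in non-amyloid Hom against WT mice, 0.055 for *Itgal* in the WT cohorts, -0.14 for *Itgal* in the interaction of genotype and cohort, -0.025 for *Itgav* in the interaction of genotype and cohort. In the interaction of genotype and cohort they were -0.0061 for *Itgal* with sex as a covariate and -0.0059 for *Itgav* with sex as a covariate and replicate 19 left out. With each library left out of amyloid Hom against WT mice, the log2 value ranged from -0.093 to 0.051 for *Itga4*, from -0.049 to 0.0087 for *Itgb1*. With each library left out of non-amyloid Hom against WT mice, the log2 value ranged from -0.023 to 0.016 for *Itgam*, from -0.070 to 0.022 for *Itgb2*, from -0.067 to 0.037 for *Itgb5*, from -0.032 to 0.027 for *Itga6*, from -0.14 to 0.058 for *Itgax*. With each library left out of the interaction of genotype and cohort, the log2 value ranged from -0.065 to 0.071 for *Itgal*, from -0.021 to 0.047 for *Itgav*. With each library left out of amyloid females against males, the log2 value ranged from -0.14 to 0.027 for *Itga4*, from -0.018 to 0.14 for *Itgal*. With each library left out of the interaction of genotype and sex, the log2 value ranged from -0.052 to 0.081 for *Itgb1*, from -0.40 to 0.19 for *Itgax*, from -0.24 to 0.062 for *Itgam*, from -0.26 to 0.013 for *Itgb2*. The log2 ratios with a changed sign when a library was left out were those of non-amyloid Hom against WT mice, from -0.14 to 0.025 for *Itgb5* to *Itgav*, from -0.29 to 0.051 for *Itgax* to *Itgam*, from -0.26 to 0.073 for *Itgax* to *Itgb2*, with replicate 23 deciding the sign of the last 2. In amyloid Hom against WT mice *Itgal* to *Itgam* ranged from 0.35 to 0.56 and *Itgax* to *Itgb2* ranged from -0.42 to -0.28, crossing the threshold of the permutation test without the mice named with them above. Adding 0.5 counts before taking ratios changed no call. Groups share no replicate numbers. No paired analysis was possible because each replicate number belongs to 1 mouse. At the depth of these libraries *Itgax* in non-amyloid mice rests on 4 to 53 counts a library, which limits its values there.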
